A study of Homo sapiens with 2 samples.

Results

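The 40 genes described here set the pace of the cell division cycle: the D-, E-, A- and B-type cyclins, the cyclin-dependent kinases (CDKs) that they activate, the CDK inhibitors, the phosphatases and kinases that switch CDK1 and CDK2, the CKS and SCF proteins that tie CDK activity to protein destruction, and the E2F, pocket-protein, FOXM1 and B-MYB transcription factors. They are a textbook set listed by name, but they were chosen with earlier results of these data known. All 40 were found among the 58884 genes of the table. They were measured in TPC-1, an established cell line from a papillary thyroid carcinoma, driven by a RET fusion. In 1 library the cells had received an siRNA against XPR1 (siXPR1), and in the other a control siRNA (siControl). XPR1 is the exporter of phosphate from human cells. Each group is 1 library, so every difference below is a value between 2 libraries, with no test and no replicate check. The sources used here do not give the siRNA sequence or the time of RNA collection.

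In a dividing cell, growth signals raise the D-type cyclins, which with CDK4 and CDK6 phosphorylate the retinoblastoma protein RB1 and free the E2F factors that it holds. E2F then drives the genes of cyclin E, cyclin A and DNA synthesis, and later in the cycle B-MYB and FOXM1 drive cyclin B, CDK1 and their regulators. INK4 inhibitors act on CDK4 and CDK6, Cip/Kip inhibitors mainly on the CDK2 complexes, and both can hold cells before DNA synthesis. Many of these transcripts are made only in part of the cycle. In bulk RNA, more cells in that part of the cycle and more of the transcript per cell cannot be told apart.

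Levels are in TPM, a length-corrected share of each library's transcripts, which allows genes to be compared with each other. Folds are ratios of TPM between the libraries. Each fold stands with a 95% Clopper-Pearson interval in brackets, from reads recovered from the TPM, which covers counting error only. A gene was called higher or lower where TPM + 1 differed by 1.5-fold or more and the mean was at least 1 TPM. The libraries held about 15150000 counted reads after XPR1 siRNA and 15780000 after control siRNA. XPR1 itself was at 5.31 TPM in siXPR1 cells and 39.2 TPM in siControl cells, so 13.5% was left (11.6% to 15.7%). The thyroid factors PAX8, FOXE1 and HHEX were above 10 TPM in both libraries, while NKX2-1, TSHR and EPCAM were listed at 0 in both. Of 11 thyroid epithelial markers 5 had a mean of at least 1 TPM, with a median difference of -0.52 on the log2(TPM + 1) scale. The keratin gene KRT7 was lower, at 3.39 TPM in siXPR1 cells and 11.1 TPM in siControl cells, and KRT18 (1.45-fold lower) and PAX8 (1.44-fold lower) were within 1.5-fold with intervals that exclude equality. All 5 leukocyte markers had means under 1 TPM, as did 4 of 5 fibroblast and 4 of 5 endothelial markers. The remaining fibroblast marker, the collagen gene COL1A1, was at 6.67 TPM in siXPR1 cells and 1.04 TPM in siControl cells. LUM, which encodes the matrix proteoglycan lumican, was at 1.11 TPM (14 reads) in siXPR1 cells and 0.0887 TPM (1 read) in siControl cells, and DCN, which encodes decorin, was listed at 0 in both. The collagen genes COL1A2 and COL3A1 went the other way on few reads. COL1A2 had 0 reads in siXPR1 cells and 3 in siControl cells, and COL3A1 had 2 in siXPR1 cells and 6 in siControl cells. The 5 fibroblast markers summed to 7.85 TPM in siXPR1 cells and 1.40 TPM in siControl cells, most of it COL1A1. The 5 endothelial markers summed to 1.08 TPM in siXPR1 cells and 2.36 TPM in siControl cells. Among them KDR was at 0.113 TPM (3 reads) in siXPR1 cells and 0.867 TPM (24 reads) in siControl cells. The part of these marker differences in the results below was not tested.

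Most of these cell-cycle control genes were higher in siXPR1 cells, and CDK6, CDKN2B and E2F7 were lower. Of the 39 members at a mean of at least 1 TPM, 22 were higher, 3 were lower and 14 were within 1.5-fold. The background was 20.7% higher and 11.1% lower among 11698 protein-coding genes, and 21.7% and 16.6% among all 16319 genes at that level. The members, which were chosen with earlier results of these data known, stood at 56.4% higher and 7.69% lower. At a 2-fold threshold 16 members were higher and 2 lower, where 8.75% and 4.57% of protein-coding genes were. The members' median difference was 0.72 on the log2(TPM + 1) scale, against 0.10 for protein-coding genes. The 40 genes together made up 2385 TPM in siXPR1 cells and 1829 TPM in siControl cells.

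**Figure D1:**
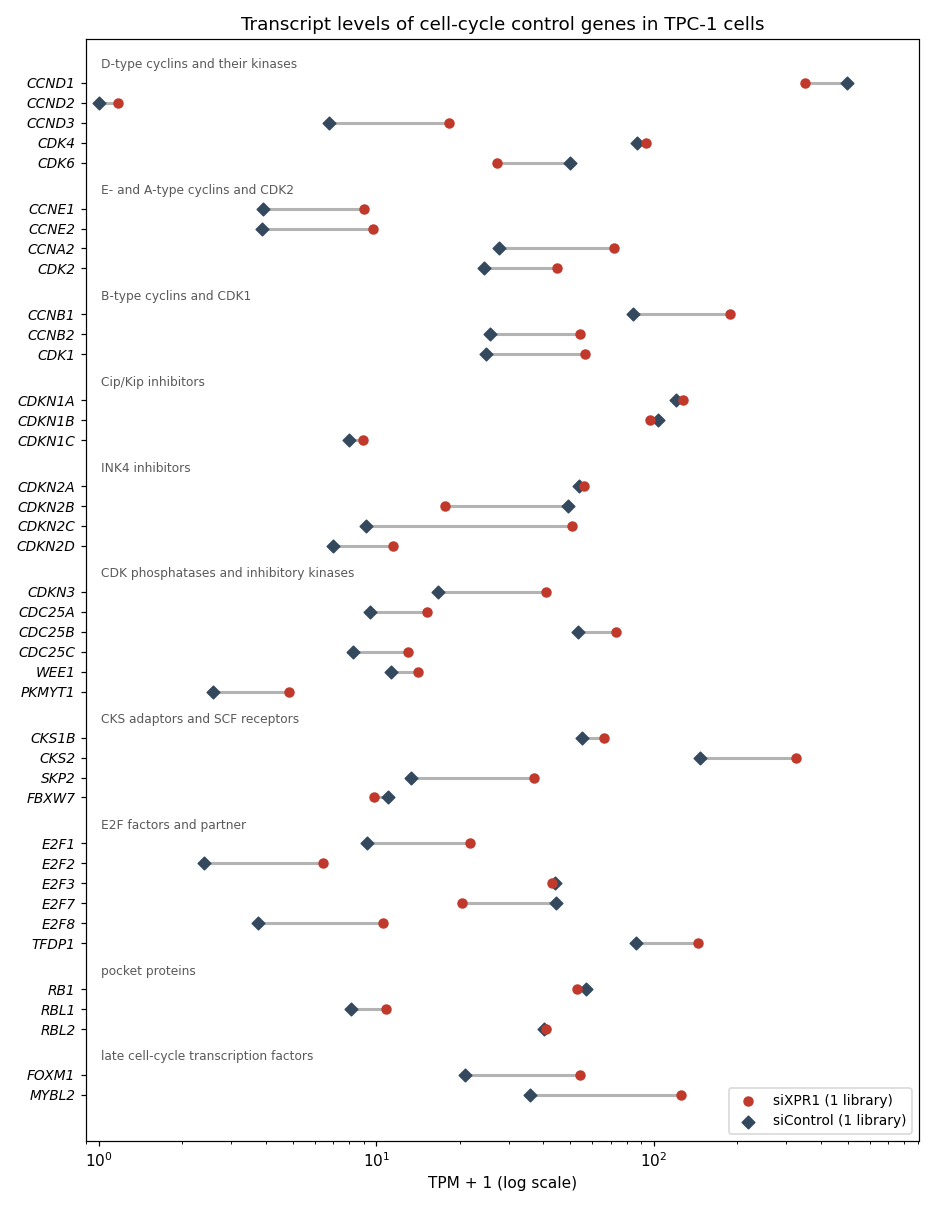
Level of each of the 40 genes on a logarithmic axis of TPM + 1, with siXPR1 as red circles and siControl as dark diamonds (1 library each), grouped by role. The red circle lies to the right for CCNE1, CCNE2, CCNA2, CCNB1 and CCNB2, while the Cip/Kip inhibitors and the pocket proteins RB1 and RBL2 nearly coincide, and CDK6, CDKN2B and E2F7 lie to the left.

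The D-type cyclins differed in opposite directions. CCND1, which encodes cyclin D1, was the most abundant of the 40 transcripts in both libraries, at 349.3 TPM in siXPR1 cells and 496.9 TPM in siControl cells. It was 1.42-fold lower (1.38 to 1.47), short of the threshold but beyond counting error. CCND3, which encodes cyclin D3, was at 17.3 TPM in siXPR1 cells and 5.76 TPM in siControl cells, 3.0-fold higher (2.47 to 3.66). CCND2 was close to silent, at 0.172 TPM (5 reads) in siXPR1 cells and 0 in siControl cells. Cyclin D1 transcript outnumbered cyclin D3 transcript 20.2-fold in siXPR1 cells and 86.3-fold in siControl cells, so it still formed 95.2% of the D-type cyclin TPM in siXPR1 cells, against 98.9% in siControl cells.

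The partner kinases of the D-type cyclins also differed from each other. CDK6 was at 26.2 TPM in siXPR1 cells and 48.7 TPM in siControl cells, 1.86-fold lower (1.74 to 1.99). CDK4 was at 92.7 TPM in siXPR1 cells and 85.9 TPM in siControl cells, a 1.08-fold difference whose interval (0.994 to 1.17) includes equality. CDK4 transcript thus exceeded that of CDK6 3.54-fold in siXPR1 cells and 1.76-fold in siControl cells. Of the exonic bases of CDK4, 43.2% overlap TSPAN31 on the other strand, which the library kit cannot separate. TSPAN31 was at 16.9 TPM in siXPR1 cells and 19.0 TPM in siControl cells.

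All 7 members that encode E-, A- or B-type cyclins or their kinases (CCNE1, CCNE2, CCNA2, CDK2, CCNB1, CCNB2 and CDK1) were higher in siXPR1 cells, by 1.87-fold to 3.06-fold. The A-type cyclin CCNA1 and the B-type cyclin CCNB3, which are not among the 40, were not higher. CCNE1 and CCNE2 encode the cyclin Es that carry cells into DNA synthesis. CCNE1 was at 8.01 TPM in siXPR1 cells and 2.89 TPM in siControl cells, 2.77-fold higher (1.82 to 4.35). CCNE2 was at 8.74 TPM in siXPR1 cells and 2.86 TPM in siControl cells, 3.06-fold higher (2.23 to 4.26). The intervals of the cyclin E genes overlap each other widely. INTS8, which shares 37.0% of the exonic bases of CCNE2 on the other strand, was at 64.8 TPM in siXPR1 cells and 41.8 TPM in siControl cells, and its part in the CCNE2 value was not tested. CCNA2, the cyclin A of dividing somatic cells, was at 70.8 TPM in siXPR1 cells and 26.8 TPM in siControl cells, 2.64-fold higher (2.32 to 3.02). CDK2, the kinase that both cyclins bind, was at 43.7 TPM in siXPR1 cells and 23.3 TPM in siControl cells, 1.87-fold higher (1.65 to 2.12), the smallest fold of the 7.

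The mitotic kinase CDK1 and its cyclins stood in similar proportions in both libraries. CDK1 was at 55.5 TPM in siXPR1 cells and 23.9 TPM in siControl cells, 2.32-fold higher (2.06 to 2.62). CCNB1, which encodes cyclin B1, was at 187.1 TPM in siXPR1 cells and 83.5 TPM in siControl cells, 2.24-fold higher (2.07 to 2.43). CCNB2, which encodes cyclin B2, was at 53.1 TPM in siXPR1 cells and 24.6 TPM in siControl cells, 2.16-fold higher (1.87 to 2.49). The ratio of CCNB1 to CDK1 transcript was 3.37 in siXPR1 cells and 3.50 in siControl cells, and that of CCNB1 to CCNB2 was 3.52 in siXPR1 cells and 3.39 in siControl cells.

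None of the Cip/Kip inhibitors passed 1.5-fold in either direction. CDKN1A, which encodes p21, an inhibitor induced by p53, was at 126.9 TPM in siXPR1 cells and 118.8 TPM in siControl cells, a ratio of 1.07 (0.995 to 1.15). CDKN1B, which encodes p27, was at 95.7 TPM in siXPR1 cells and 102.7 TPM in siControl cells, a ratio of 0.932 (0.858 to 1.01). CDKN1C, which encodes p57, was low, at 7.95 TPM in siXPR1 cells and 6.98 TPM in siControl cells, a ratio of 1.14 (0.819 to 1.59). All these intervals, on TPM without further scaling, include equality. The ratio of CCNA2 to CDKN1A transcript was 0.558 in siXPR1 cells and 0.225 in siControl cells.

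The INK4 inhibitors held both the highest and the lowest ratio of all members. CDKN2C, which encodes p18, was at 49.9 TPM in siXPR1 cells and 8.17 TPM in siControl cells, 6.11-fold higher (5.02 to 7.54). On the log2(TPM + 1) scale its difference of 2.47 exceeded that of 99.6% of protein-coding genes. CDKN2B, which encodes p15, was at 16.6 TPM in siXPR1 cells and 48.3 TPM in siControl cells, 2.90-fold lower (2.53 to 3.34), with only 2.03% of protein-coding genes below it. CDKN2D, which encodes p19, was at 10.49 TPM in siXPR1 cells and 5.99 TPM in siControl cells, 1.75-fold higher with a wide interval (1.15 to 2.69, from 64 reads in siXPR1 cells and 38 in siControl cells). CDKN2A, whose transcripts encode p16 and ARF and are not separated in a value per gene, was at 54.9 TPM in siXPR1 cells and 52.9 TPM in siControl cells, a ratio of 1.04 (0.948 to 1.14).

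The INK4 family had a similar sum in both libraries and a different make-up. The 4 genes summed to 131.9 TPM in siXPR1 cells and 115.4 TPM in siControl cells. CDKN2C formed 37.8% of that sum in siXPR1 cells and 7.08% in siControl cells, and CDKN2B 12.6% in siXPR1 cells and 41.8% in siControl cells. CDKN2A and CDKN2B are neighbours on chromosome 9 of GRCh38, at 21967753 to 21995301 and 22002903 to 22009363 on the minus strand, and only the second differed past the threshold. None of the 5 other genes listed from that locus did so on the log2(TPM + 1) scale. As a ratio of TPM, DMRTA1 was 2.03-fold higher (1.15 to 3.67), at 1.72 TPM in siXPR1 cells and 0.848 TPM in siControl cells. MTAP, which salvages methionine, was at 8.27 TPM in siXPR1 cells and 12.1 TPM in siControl cells, 1.47-fold lower (1.31 to 1.65). The ubiquitin ligase adaptor KLHL9 was at 49.5 TPM in siXPR1 cells and 45.2 TPM in siControl cells.

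**Figure D2:**
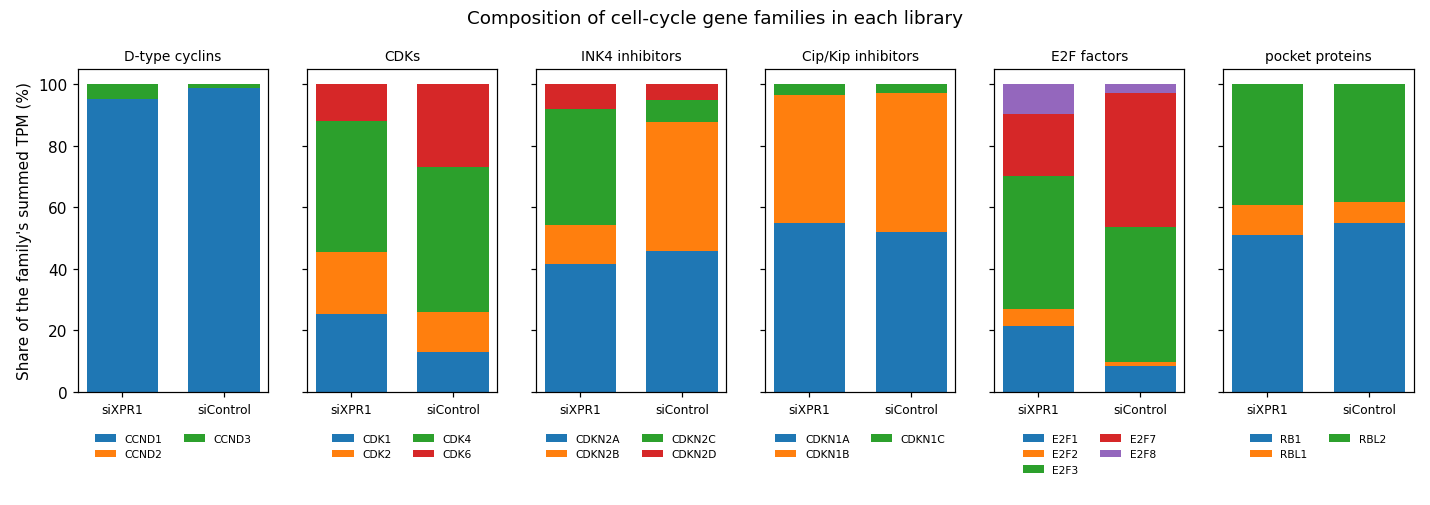
Share of each gene in the summed TPM of the members described here from its family (percent, stacked to 100), with siXPR1 left and siControl right. The E2F panel leaves out E2F4, E2F5 and E2F6, and the CDK panel holds only CDK1, CDK2, CDK4 and CDK6. The INK4 panel shows CDKN2C at 37.8% against 7.08% and CDKN2B at 12.6% against 41.8%, the E2F panel shows E2F7 at 19.9% against 43.8%, and the Cip/Kip and pocket-protein panels differ little.

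Among the enzymes that set the phosphate marks on CDK1 and CDK2, 4 of 6 genes were higher (CDKN3, CDC25A, CDC25C and PKMYT1) and CDC25B and WEE1 were within the threshold. CDKN3, a phosphatase that removes the activating mark of CDK2, was at 39.98 TPM in siXPR1 cells and 15.7 TPM in siControl cells, 2.54-fold higher (2.05 to 3.16). CDC25A, which removes the inhibitory marks of CDK2 at the start of DNA synthesis, was at 14.2 TPM in siXPR1 cells and 8.46 TPM in siControl cells, 1.68-fold higher (1.36 to 2.08). CDC25C, a phosphatase of mitotic entry, was at 12.0 TPM in siXPR1 cells and 7.24 TPM in siControl cells, 1.66-fold higher (1.29 to 2.15). CDC25B, the most abundant CDC25 transcript, was at 72.2 TPM in siXPR1 cells and 52.5 TPM in siControl cells, a ratio of 1.38 (1.26 to 1.5) that stayed within the threshold. The opposing kinase WEE1 was at 13.2 TPM in siXPR1 cells and 10.3 TPM in siControl cells, a ratio of 1.28 (1.12 to 1.46). PKMYT1, the membrane-bound relative of WEE1, was at 3.86 TPM in siXPR1 cells and 1.57 TPM in siControl cells, 2.46-fold higher (1.64 to 3.86, from 79 reads in siXPR1 cells and 33 in siControl cells). PAQR4, which shares 24.5% of the exonic bases of PKMYT1 on the other strand, was at 6.46 TPM in siXPR1 cells and 2.23 TPM in siControl cells, and its part in the PKMYT1 value was not tested.

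The substrate receptors of the SCF ubiquitin ligase differed from each other. SKP2, which marks p27 for destruction, was at 36.1 TPM in siXPR1 cells and 12.4 TPM in siControl cells, 2.92-fold higher (2.48 to 3.45). FBXW7, which marks cyclin E, was at 8.83 TPM in siXPR1 cells and 10.01 TPM in siControl cells, a ratio of 0.882 (0.770 to 1.01). The small CKS proteins bind CDKs, and CKS1B also serves SKP2 as a cofactor. CKS2 was the second most abundant member in both libraries, at 324.7 TPM in siXPR1 cells and 145.8 TPM in siControl cells, 2.23-fold higher (1.97 to 2.52). CKS1B was at 65.3 TPM in siXPR1 cells and 54.3 TPM in siControl cells, a ratio of 1.2 (1.07 to 1.35), so CKS2 exceeded it 4.98-fold in siXPR1 cells and 2.69-fold in siControl cells. CKS1B has processed pseudogenes, of which the most abundant, CKS1BP3, was at 4.16 TPM in siXPR1 cells and 4.0 TPM in siControl cells, and the treatment of reads shared with such copies is not known here.

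The E2F family was split within its activator and its repressor class. E2F1, an activator of the genes of DNA synthesis, was at 20.8 TPM in siXPR1 cells and 8.28 TPM in siControl cells, 2.51-fold higher (1.95 to 3.27). E2F2, its close relative, was at 5.41 TPM in siXPR1 cells and 1.39 TPM in siControl cells, 3.90-fold higher (2.62 to 5.95, from 120 reads in siXPR1 cells and 32 in siControl cells). E2F3, the most abundant E2F of the 5 in siXPR1 cells, was at 41.9 TPM in siXPR1 cells and 43.2 TPM in siControl cells, a ratio of 0.969 (0.884 to 1.06). The atypical E2Fs, E2F7 and E2F8, repress E2F targets without a partner protein, and their transcripts differed in opposite directions. E2F8 was at 9.53 TPM in siXPR1 cells and 2.75 TPM in siControl cells, 3.46-fold higher (2.50 to 4.89). E2F7 was at 19.3 TPM in siXPR1 cells and 43.3 TPM in siControl cells, 2.24-fold lower (2.01 to 2.49), with 3.69% of protein-coding genes below it. E2F7 transcript exceeded E2F8 transcript 2.03-fold in siXPR1 cells and 15.7-fold in siControl cells. The sum of the 5 E2F genes was 96.97 TPM in siXPR1 cells and 98.98 TPM in siControl cells. TFDP1, which encodes DP1, the partner of the activator E2Fs, was at 143.3 TPM in siXPR1 cells and 85.1 TPM in siControl cells, 1.69-fold higher (1.57 to 1.80).

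The pocket proteins, which restrain E2F, were within 1.5-fold. RB1 was at 51.7 TPM in siXPR1 cells and 56.1 TPM in siControl cells, a ratio of 0.922 (0.857 to 0.993). RBL2, which encodes p130, was at 39.95 TPM in siXPR1 cells and 39.2 TPM in siControl cells, a ratio of 1.02 (0.939 to 1.10). RBL1, which encodes p107 and is itself made in dividing cells, was at 9.80 TPM in siXPR1 cells and 7.12 TPM in siControl cells, a ratio of 1.38 (1.13 to 1.68). The factors that act after E2F were both higher. MYBL2, which encodes B-MYB, was at 124.7 TPM in siXPR1 cells and 34.8 TPM in siControl cells, 3.58-fold higher (3.21 to 4.01), and its difference exceeded that of 98.6% of protein-coding genes. FOXM1 was at 53.0 TPM in siXPR1 cells and 19.9 TPM in siControl cells, 2.66-fold higher (2.37 to 2.99). MYBL2 transcript thus stood above RB1 transcript in siXPR1 cells, with a ratio of 2.41, and below it in siControl cells, with a ratio of 0.621.

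**Figure D3:**
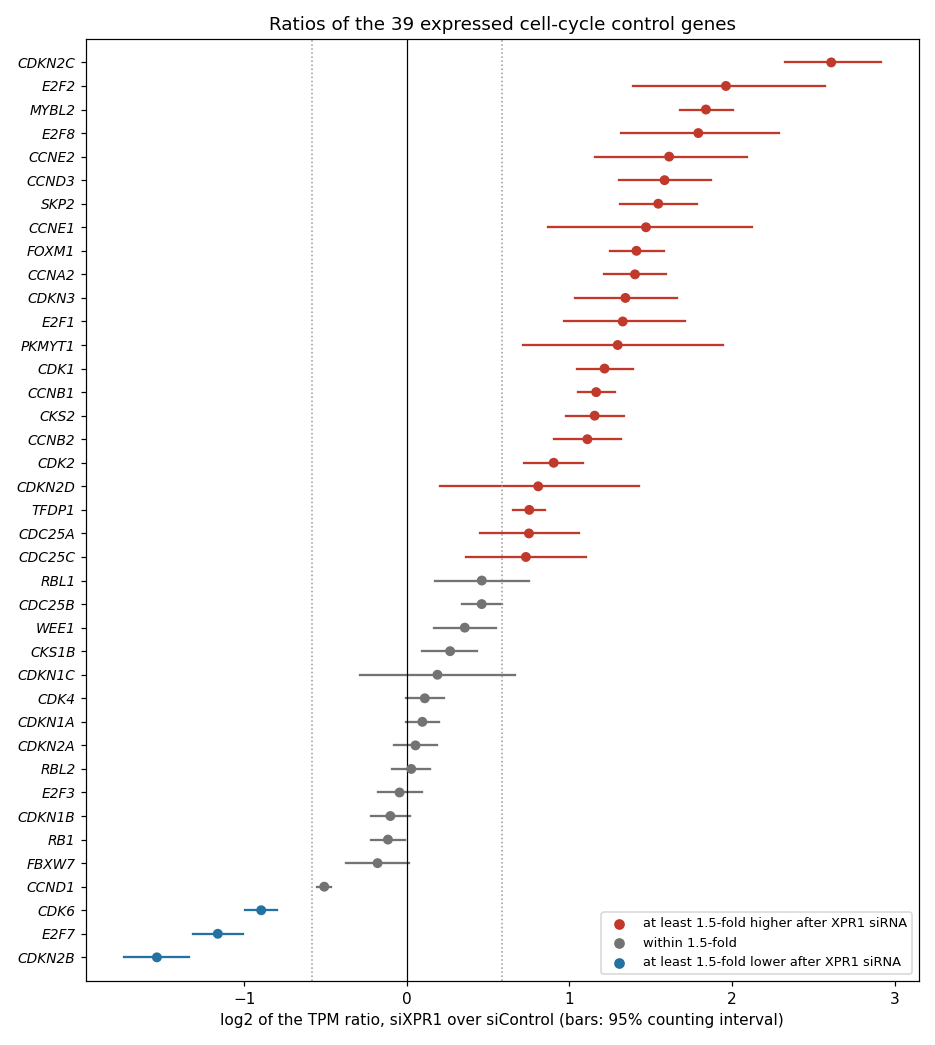
Log2 of the TPM ratio of siXPR1 over siControl for the 39 members with a mean of at least 1 TPM, in falling order, with 95% counting intervals as bars and 1.5-fold as dotted lines. CDKN2C leads at 6.11-fold, followed by E2F2, MYBL2 and E2F8, while CDK6, E2F7 and CDKN2B form the lower end, and colours mark calls made on the log2(TPM + 1) scale.

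The calls can be set against counting error. The interval excluded equality for all 22 higher and all 3 lower members, and it lay wholly above 1.5-fold for 19 of the 22. CDC25A, CDC25C and CDKN2D were the others. It also excluded equality for 6 of the 14 members within the threshold, which were CCND1, CDC25B, WEE1, CKS1B, RB1 and RBL1. The matching shares over all genes were not computed, so these counts say nothing particular to the members. Calls and intervals come from the same reads, so the intervals are not separate evidence for the calls.

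Promoters were searched for words of the sites through which E2F, and the complexes of B-MYB and FOXM1, are known to act on cell-cycle genes. RefSeq promoter windows on GRCh38.p14, from 250 bases before to 50 after a start, matched 31 of the 40 members. CCND1, CCND2, CCNE2, CDK2, CDKN1C, WEE1, PKMYT1, E2F8 and FOXM1 had no entry. The words, on both strands, were TTTCCCGC, TTTCGCGC, TTTGCCGC and TTTGGCGC for E2F, TTTGAA for the cell-cycle homology region (CHR), and CCAAT for the site of NF-Y. An E2F word was present for 5 of 17 higher members, 2 of 11 members within the threshold and none of 3 lower members, against 5.40% of 15843 protein-coding genes and 3.99% of all 27305 genes with a window. The CHR word was present for 5 of 17, 4 of 11 and none of 3, against 15.8% of protein-coding genes and 18.2% of all genes. The CCAAT word was present for 12 of 17, 6 of 11 and 1 of 3, against 42.1% and 39.7%. The lower member with CCAAT words was E2F7. Genes with several starts had several windows, and no test was made.

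A few upstream stretches show these arrangements, with the words in capitals. On the other strand, ATTGG is the CCAAT word, TTCAAA the CHR word and GCGGCAAA the E2F word TTTGCCGC. The stretches are 150 bases long, end at the base before the RefSeq start and are printed 5′ to 3′ on the strand of the gene. E2F1 (chr20:33686386-33686535, minus strand), E2F2 (chr1:23531234-23531383, minus) and CDC25A (chr3:48188418-48188567, minus) are higher members with E2F words within 50 bases of the start. RBL1 and E2F3 were within the threshold and are not printed, but they also have E2F words. Those of RBL1 begin 26 and 16 bases before a start, and that of E2F3 begins 53 bases before. The higher members CCNE1, SKP2 and MYBL2 had none of the words in their windows. CDKN2C, the member with the highest ratio, had a CCAAT word only. CKS2 (chr9:89311045-89311194, plus) is a higher member with a CHR word beginning 29 bases before the start and CCAAT words further upstream. CKS1B (chr1:154974531-154974680, plus) has the same arrangement, with its CHR word beginning 30 bases before the start, but was within the threshold. E2F7 (chr12:77065570-77065719, minus) was lower and has CCAAT words, beginning 86 and 54 bases before the start, with no E2F or CHR word.
E2F1: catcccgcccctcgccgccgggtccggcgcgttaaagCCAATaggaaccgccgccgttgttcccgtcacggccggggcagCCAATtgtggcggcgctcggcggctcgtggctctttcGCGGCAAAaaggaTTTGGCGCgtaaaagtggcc
E2F2: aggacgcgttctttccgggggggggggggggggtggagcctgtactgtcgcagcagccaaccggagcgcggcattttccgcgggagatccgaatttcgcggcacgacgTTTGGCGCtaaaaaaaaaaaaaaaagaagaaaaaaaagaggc
CDC25A: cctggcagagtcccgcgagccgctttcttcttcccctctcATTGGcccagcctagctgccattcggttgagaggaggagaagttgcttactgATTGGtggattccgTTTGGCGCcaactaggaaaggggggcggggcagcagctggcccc
CKS2: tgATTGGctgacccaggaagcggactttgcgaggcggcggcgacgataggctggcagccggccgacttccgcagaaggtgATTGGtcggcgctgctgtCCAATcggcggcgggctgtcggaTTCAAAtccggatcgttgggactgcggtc
CKS1B: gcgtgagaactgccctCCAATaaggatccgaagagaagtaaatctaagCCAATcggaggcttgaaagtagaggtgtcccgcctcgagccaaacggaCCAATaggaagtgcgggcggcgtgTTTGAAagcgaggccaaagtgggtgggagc
E2F7: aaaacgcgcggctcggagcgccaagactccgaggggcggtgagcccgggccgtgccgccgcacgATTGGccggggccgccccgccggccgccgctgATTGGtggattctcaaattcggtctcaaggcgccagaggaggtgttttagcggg

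**Figure D4:**
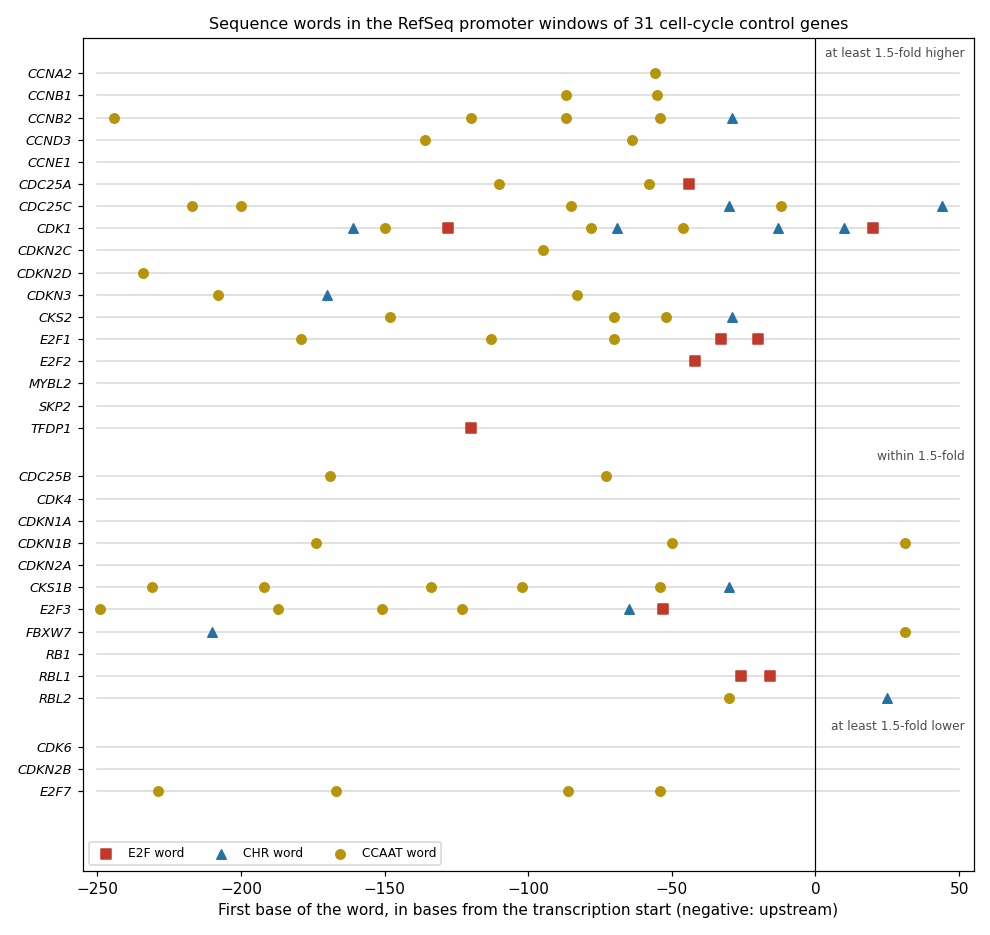
Position of each E2F word (red squares), CHR word (blue triangles) and CCAAT word (gold circles) relative to the transcription start in the promoter windows of 31 members, grouped by call, with all windows of a gene on 1 line. CHR words begin 29 or 30 bases before the start in CCNB2, CKS2, CDC25C and CKS1B. E2F words lie close to the start in E2F1, E2F2, CDC25A, E2F3 and RBL1 and, downstream of a start, in CDK1.

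The other genes listed here were, when pooled, higher at a share near the background, but the lists differed. Of 77 other cyclin, CDK, E2F-complex, ubiquitin ligase and checkpoint genes, 74 were at a mean of at least 1 TPM, of which 19 (25.7%) were higher and 5 (6.76%) lower, with a median of 0.24 on the log2(TPM + 1) scale. Among protein-coding genes 20.7% were higher and 11.1% lower, with a median of 0.10. By list within the 77, the share higher at that level ranged from 18.2% for E2F-complex genes to 38.5% for mitotic-entry and checkpoint genes. The difference from the 40 members was not tested. Among 15 other cyclins 4 were higher and 3 lower (median -0.26). CCNG2, a cyclin of resting and stressed cells, was 3.11-fold higher at 52.01 TPM in siXPR1 cells and 16.7 TPM in siControl cells. CCNF, a cyclin that acts as an SCF receptor, was 2.03-fold higher. CCNA1, the cyclin A of germ cells and some tumours, was 4.69-fold lower (3.23 to 7.01), at 3.50 TPM in siXPR1 cells and 16.4 TPM in siControl cells, opposite to CCNA2. Among 15 other genes of CDKs and of the CDK7 assembly factor MNAT1, 3 were higher and 2 lower (median -0.04). From a mean of 5 TPM upward, the differences farthest from 0 on the log2(TPM + 1) scale were those of CDK17 (1.78-fold lower), the Mediator kinase CDK8 (1.69-fold lower) and CDK18 (1.64-fold higher).

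The remaining E2F and DREAM or MMB complex genes showed 2 of 11 higher and 0 lower (median -0.12). MYBL1, which encodes A-MYB, was 3.54-fold higher at 19.3 TPM in siXPR1 cells and 5.47 TPM in siControl cells, and the histone chaperone RBBP4 was 1.64-fold higher, while the kinase DYRK1A, which drives DREAM assembly, was 1.47-fold lower, within the threshold. The repressor E2F4, the main E2F of resting cells, was at 36.4 TPM in siXPR1 cells and 42.8 TPM in siControl cells. Of 20 ubiquitin ligase genes 5 were higher and none lower (median 0.38). They included CDC20, the mitotic activator of the anaphase-promoting complex, at 169.8 TPM in siXPR1 cells and 67.7 TPM in siControl cells, the replication-linked receptor DTL (2.06-fold higher) and the ring protein RBX1 (1.91-fold higher). Of 13 mitotic-entry and checkpoint genes 5 were higher and none lower (median 0.49). From a mean of 5 TPM upward, the farthest from 0 on the log2(TPM + 1) scale were the checkpoint mediator CLSPN (1.49), the mitotic kinase AURKA (0.95) and the mitotic kinase MASTL (0.88).

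**Figure D5:**
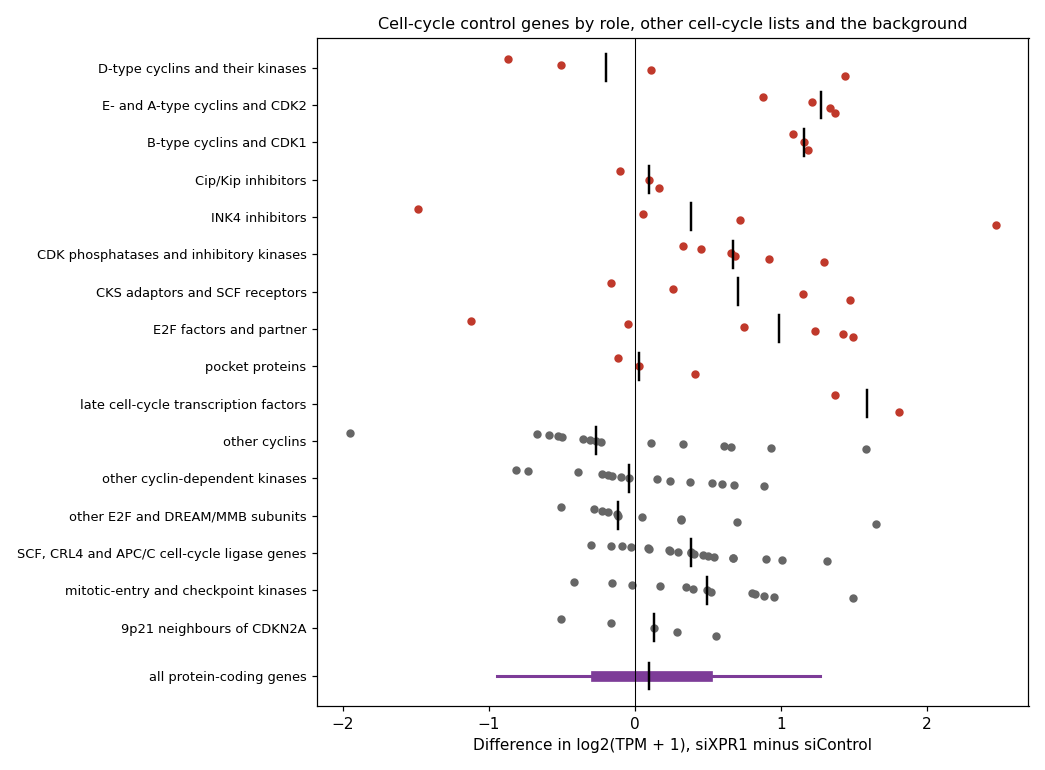
Difference in log2(TPM + 1), siXPR1 minus siControl, of each expressed gene (points) by role, with the 40 members in red, other cell-cycle lists in grey and the median of each list as a black tick. The purple bar gives the 5th to 95th (thin) and 25th to 75th (thick) percentiles of 11698 protein-coding genes, with a median of 0.10. The members of the E-, A- and B-type cyclin groups and the late factors lie right of its thick part. Of these, CDK2, CCNE1, CDK1, CCNB1 and CCNB2 lie within its thin part, and CCNE2, CCNA2, FOXM1 and MYBL2 lie beyond it.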

How the data were processed

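TPC-1 cells were sequenced after siRNA transfection, with 1 library for each of 2 groups. Per the labels' protocols, RNA was taken with RNeasy Plus and prepared with the TruSeq RNA kit v2, which does not mark strand. The submitters' processing notes name FastQC, MultiQC, Trimmomatic 0.38, featureCounts 2.0.0 and GRCh38. Neither aligner nor annotation release is given in the sources used here. TPM values were deposited by the authors and sum to 1000000 in each library, so a value depends on all other transcripts. All columns were used.

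Symbols came from a table of gene identifiers or GENCODE 29, for 58876 of 58884 genes. Differences are of log2(TPM + 1), where the pseudocount shrinks those of low genes. Reads were recovered by dividing TPM times exonic bases (GENCODE 29) by the worth of 1 read. Of genes with up to 10 reads, 92.5% in siXPR1 and 92.4% in siControl came within 0.01 of a whole number, as did 19 of the 40 members in both libraries, and intervals of the others are approximate. In a gene of 2000 exonic bases, 3 reads, the limit that a count of 0 allows, are 0.369 TPM in siXPR1 and 0.355 TPM in siControl. Reads are not independent molecules, so intervals cover counting error only. With 1 library per group no p-value is given. Medians, counts and recovered reads were computed with Python 3.11.15 (pandas 2.3.3, scipy 1.17.1). Log2 ratios, intervals and recovered reads were also tested on simulated reads. The simulation used the same exonic bases as the recovery, so it cannot check the unknown annotation.

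Members and lists were chosen with earlier results of these data known. All 40 members are named, with values for each, and of each list of other cell-cycle genes the 3 farthest from 0 in either direction at a mean of at least 5 TPM. COL1A1, COL1A2, COL3A1, LUM, DCN, KDR, KRT7, KRT18, PAX8, the other thyroid markers, CCNB3, DMRTA1, genes that overlap a member, CKS1BP3 and E2F4 were chosen after their values were seen. Alternatives were other pseudocounts, floors and scalings, a 2-fold threshold and a call that requires the counting interval to exclude equality.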

Additional observations from a re-analysis of the deposited data

How the results depend on the processing

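The counts of 22 higher and 3 lower members and the median of 0.72 kept their direction under every alternative run. Higher members numbered 22 with a pseudocount of 0.1, without a floor, with median-of-ratios scaling, with protein-coding nuclear genes only and with the counting interval required, 21 with upper-quartile scaling, 20 from 5 TPM, 18 with a pseudocount of 5 and 16 at 2-fold. Lower members numbered 4 with upper-quartile scaling, where CCND1 joined them at -0.60, 2 at 2-fold, where CDK6 left, and 3 otherwise. The median ranged between 0.49 with a pseudocount of 5 and 0.75 with a pseudocount of 0.1. A pseudocount of 5 took CDKN2D, CDC25A, CDC25C and PKMYT1 below the threshold, and upper-quartile scaling took CDC25C to 0.579. That scaling moves every log2 ratio of TPM by -0.091, and median-of-ratios scaling by -0.056, with smaller shifts of log2(TPM + 1) in low genes. The bracketed intervals are on TPM without such scaling and would move with it. Where an end lies near equality, as for CDKN1B and FBXW7, whether the interval includes equality depends on the scaling. No called member changed sign. The requirement on the counting interval was added once the values had been seen. It could not change the counts, because the interval excluded equality for all 22 higher and all 3 lower members.

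No paired analysis was possible because there is 1 library for each siRNA, and leaving out a replicate was not an option. Without replicates, variation between cultures is not measured. Depth limits CCND2, CCNE1, CCNE2, CDKN1C, CDKN2D, PKMYT1, E2F1, E2F2 and E2F8, each with under 100 reads in at least 1 library.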
